A study of Ovis aries with 16 samples.

Results

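Fibroblast growth factors (FGFs) are secreted proteins that bind heparan sulfate on the cell surface and signal through receptor tyrosine kinases of the FGFR family, chiefly along the RAS-MAPK chain. In the lung, FGF10 from mesenchyme acts on FGFR2 in epithelium and drives branching and epithelial growth, and FGFR3 and FGFR4 are needed together for normal formation of alveoli after birth. FGF2 is a growth factor for endothelial and smooth muscle cells, and FGF1 binds all the receptors. The ligands FGF1, FGF2, FGF7 and FGF10 and the receptors FGFR1, FGFR2, FGFR3 and FGFR4 were followed here through all their probe sets with 1 gene symbol in the platform's probe-to-gene table, each probe set kept apart. This gave 7 of the 9155 genes with such a probe set, and 31 of the 24016 probe sets tested, with 12 probe sets for FGF1, 2 for FGF2, 3 for FGF10, 2 for FGFR1, 5 for FGFR2, 5 for FGFR3 and 2 for FGFR4. FGF7 had no probe set with a single symbol and was not analysed here.

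The RNA came from peripheral lung of lambs aged 3 days, 8 with a shunt and 8 sham-operated controls. Before birth, at 9 ± 6 days before term, each shunt fetus received a Gore-tex graft of 8.0 mm, with a length of 2 mm, that joined the ascending aorta to the main pulmonary artery, and each control had a sham procedure. The lambs were then born spontaneously. The graft lets aortic blood into the pulmonary artery, as happens in children born with such a connection, and the comparison asks which genes of the lung differ at this age. It uses whole peripheral lung, in which fewer cells of a type and less RNA per cell cannot be told apart. The labels describe no lamb individually, so each array was taken as 1 lamb, and were 2 arrays from the same lamb, a p-value would describe arrays and not lambs.

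Levels are log2 values after RMA, and a difference is the mean level in shunt minus that in control, so 1 unit is a doubling. Sheep RNA was hybridized to an Affymetrix array of bovine probes, and the probe sets of 1 gene spanned a wide range of signal. Probes differ in how well they bind, so bright, dim and percentiles describe the signal of a probe set and not the amount of RNA, and no gene's level is set against another's. Probe sets of a gene are numbered from the one with the highest mean level over all lambs, and the plots give their identifiers. In the manufacturer's naming, S or A in a probe set's identifier marks a design on the sense or the antisense strand. Of the 31 probe sets 22 were of the sense and 9 of the antisense kind, and 13 lay in the dimmest 25% of all probe sets, where signal over background is unknown. The array of control lamb 2 was the least like the others, correlating with them at 0.983 on average, against 0.990 to 0.993 for every other array. It had the highest level of all 16 lambs in 10 of the 31 probe sets and in 9 of the 14 receptor probe sets, against 19.6% of all probe sets. The median of an array was 7.158 ± 0.0165 (SD, n = 8) for control lambs against 7.135 ± 0.00944 for shunt lambs (exact permutation p = 0.000777). The poly-A spike controls were at 4.273 against 4.204 (exact permutation p = 0.00218). Control lamb 2 was at 4.51 there and every other array at 4.19 to 4.30. That is the level of very dim probe sets: FGFR2 probe set 5, with a mean of 4.20, was at the 3.56th percentile. With each array centred on its median FGF2 probe set 2 differed by 0.53 (adjusted p = 0.0535), FGFR4 probe set 1 by -0.38 and FGFR2 probe set 1 by -0.35. Values without control lamb 2 stand beside those member probe sets where it was most extreme. None are given for the marker lists of cell types used below. Control lamb 2 had the lowest mean of the smooth muscle list (9.36) and the highest of the fibroblast list (10.52). The part of the spike controls in the differences was not tested.

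None of the 31 probe sets passed an adjusted p of 0.05 in the limma fit over all probe sets, in which 17 of 24016 passed (0.0708%), 16 higher (0.0666%) and 1 lower (0.00416%) in shunt. At an unadjusted p under 0.05, 1 of the 31 was higher and 3 were lower, where 6.42% of all probe sets were higher and 7.32% were lower. The largest difference was that of 1 FGF2 probe set, higher in shunt lung, followed by probe sets of FGFR4 and FGFR2, lower in shunt lung. The 2 groups overlapped in all 31 probe sets, against 0.142% of all probe sets in which they did not. The ligands had 8 probe sets with a higher and 9 with a lower mean in shunt, where 44.9% of all probe sets had a higher and 55.1% a lower mean. The receptors had 1 higher and 13 lower, with a median difference of -0.10 against -0.01 for all probe sets tested.

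**Figure D1:**
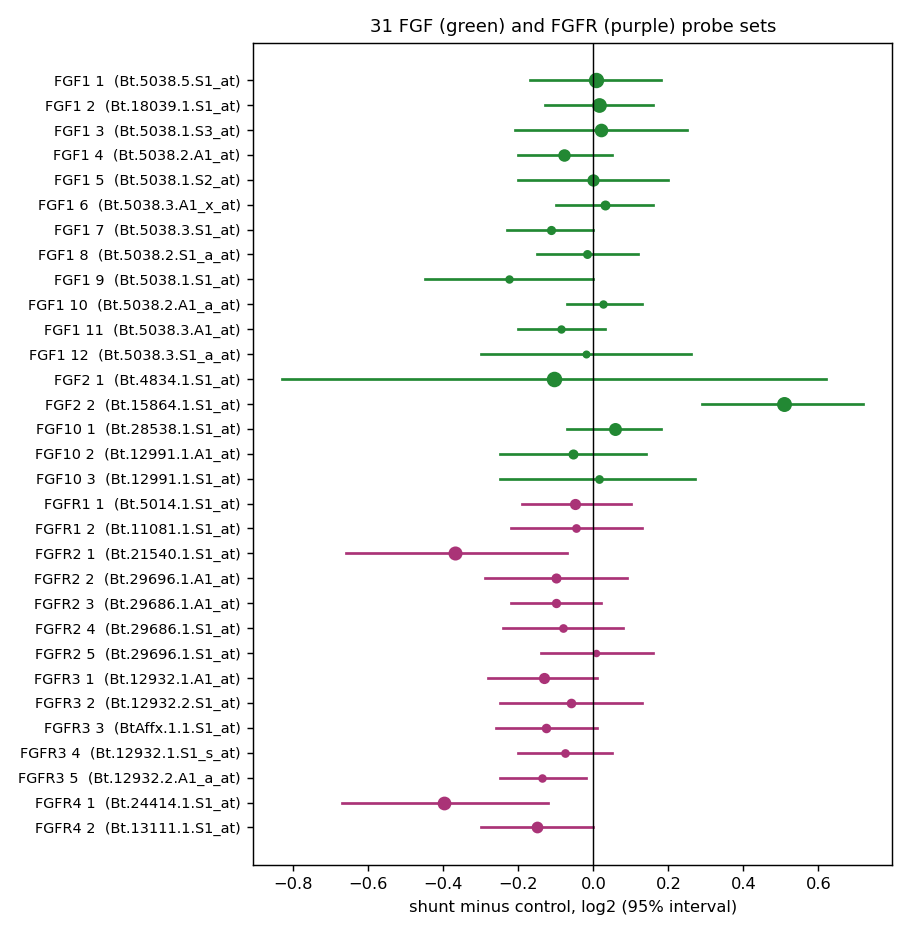
Difference between shunt and control lung (log2, shunt minus control) for each of the 31 probe sets, with its 95% confidence interval from the limma fit, 8 lambs a group. Green marks ligands and purple receptors, larger points mark brighter probe sets, and FGF2 probe set 2 at 0.51 lies farthest to the right while FGFR4 probe set 1 at -0.40 lies farthest to the left.

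FGF2, basic fibroblast growth factor, is known as an angiogenic ligand, and both its probe sets were bright, at the 85.9th and 92nd percentiles of all probe sets. On FGF2 probe set 2 the control lambs ran from 9.00 to 9.83 with a median of 9.44, and the shunt lambs from 9.65 to 10.13 with a median of 9.95. The groups overlapped through control lamb 8 alone, whose 9.83 lay above shunt lambs 2, 4 and 7 at 9.65, 9.74 and 9.67. The other 7 control lambs were all below every shunt lamb, the highest of them at 9.54. The mean of the control lambs was 9.41 ± 0.24 (SD, n = 8) and that of the shunt lambs 9.91 ± 0.20, so they differed by 0.51 ± 0.10 (SE, 95% interval 0.29 to 0.72), or 1.42-fold. All 8 shunt lambs lay above the control mean, as was the case for 5.33% of all probe sets. The difference missed the threshold over all probe sets (limma p = 0.000102, adjusted p = 0.0731, exact permutation p = 0.000777). It passed without control lamb 8 (0.57, adjusted p = 0.0280) and with array weights (0.47, adjusted p = 0.0399), while the other 15 fits that left out 1 lamb gave adjusted p-values of 0.0612 to 0.172. Control lamb 2 was the lowest control here, at 9.00, and without it the difference was 0.45 (adjusted p = 0.121).

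FGF2 probe set 1 gave another picture. Control lambs ran from 10.11 to 10.85 with a median of 10.51, and shunt lambs from 8.31 to 11.32 with a median of 10.84. Shunt lamb 1 was at 9.12 and shunt lamb 2 at 8.31, below all 14 other lambs, while the remaining 6 shunt lambs lay between 10.48 and 11.32. The means were 10.49 ± 0.26 (SD, n = 8) in control and 10.39 ± 1.09 in shunt. The difference was -0.10 ± 0.35 (SE, 95% interval -0.83 to 0.62, adjusted p = 0.913), and the spread of the shunt group was the widest seen in the 31 probe sets. The 95% interval does not exclude the difference seen on probe set 2.

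The 2 low shunt lambs lay 0.99 below the nearest other lamb on FGF2 probe set 1. Among all 24016 probe sets these same lambs were the 2 lowest of the 16 in 118 (0.491%), and no other of these had a gap as large. The next named ones were RCAN1, a regulator of calcineurin, with a gap of 0.27, and MAFF, a small MAF transcription factor, with 0.12. On probe set 2 lamb 1 was at 10.02 and lamb 2 at 9.65, with lamb 1 inside the range of the other shunt lambs and lamb 2 just below it. Without shunt lamb 1 the difference on probe set 1 was 0.08, without shunt lamb 2 it was 0.19, and without both it was 0.45, beside 0.53 on probe set 2. The 2 lambs were left out because of these very values, so the last figures are a description and carry no test. No sequence of the probes was used here, so what sets the 2 lambs apart was not tested.

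Whether the 2 FGF2 probe sets differed from each other in their response was tested directly, within each lamb. The difference between their differences was -0.61 (exact permutation p = 0.145, adjusted p = 0.837 over 92 pairs of probe sets of the same gene). Across the 16 lambs, with group means taken off, their levels correlated at r = 0.30 (rho 0.30), a description over lambs that share their group. Of the 92 pairs of probe sets over the 7 genes none passed an adjusted p of 0.05 (0%) and 6 had an unadjusted p under 0.05 (6.52%).

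**Figure D2:**
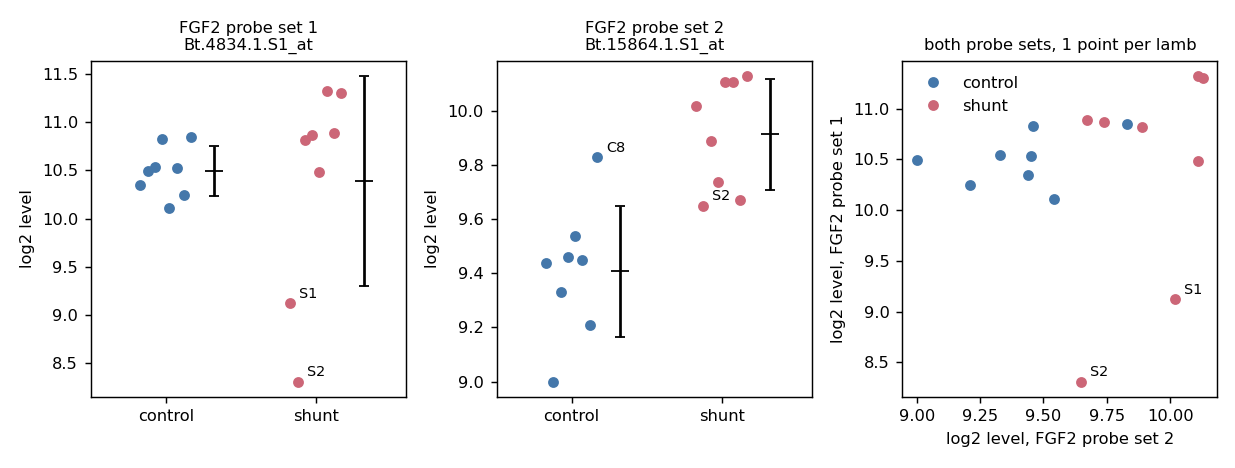
Log2 levels of the 2 FGF2 probe sets, 1 point for each lamb, with the mean and SD of each group of 8 as bars, and at the right the probe sets plotted against each other. C8, S1 and S2 mark control lamb 8 and shunt lambs 1 and 2, and the 2 shunt lambs sit at 9.12 and 8.31 on FGF2 probe set 1 while all shunt lambs sit at 9.65 or above on FGF2 probe set 2.

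Marker lists of the cells that FGF2 acts on had higher mean levels in shunt lung beside it. The endothelial list (12 of 13 genes, 19 probe sets) had a mean level of 8.03 in control lambs (range 7.93 to 8.11) and 8.13 in shunt lambs (8.05 to 8.28), with 13 of 19 probe sets higher and 6 lower. Of the 19, 7 were higher with an unadjusted p under 0.05, where 6.42% of all probe sets were, none was lower with such a p, and 1 passed the threshold. The adhesion molecule PECAM1 had the highest difference, 0.35 ± 0.06 (SE, adjusted p = 0.0384), and its other probe set was at 0.28 (adjusted p = 0.0609). ENG was at 0.32 and TEK at 0.20, while VWF was at -0.11 and 0.04, CLDN5 at -0.11, KDR at -0.09 and 0.08 and EGFL7 at -0.06. The smooth muscle list (9 of 11 genes, 10 probe sets) went from 9.54 (9.36 to 9.82) to 9.70 (9.56 to 9.84), with 7 of 10 probe sets higher and 3 lower, of which 5 of the higher and 0 of the lower had an unadjusted p under 0.05, and none passed the threshold. Among its members TPM2 was at 0.37 and -0.05 and MYH11 at 0.33. TAGLN was at 0.39 ± 0.14 (SE, adjusted p = 0.257) and CNN1, another smooth muscle marker, at -0.18 ± 0.09 (adjusted p = 0.398). Within groups FGF2 probe set 2 correlated with the endothelial list at r = 0.20 (rho 0.30) and with the smooth muscle list at r = 0.00 (rho -0.05), over 16 lambs. The part of these cells in the FGF2 difference was not tested beyond these values.

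FGF1, acidic fibroblast growth factor, differed on its bright probe sets by less than the spread between lambs. On FGF1 probe set 1 control lambs ran from 9.88 to 10.40 (median 10.21) and shunt lambs from 10.01 to 10.50 (median 10.17), and the ranges overlapped nearly in full. The difference there was 0.01 ± 0.08 (SE, 95% interval -0.17 to 0.18). On FGF1 probe set 2 it was 0.01 ± 0.07 (-0.13 to 0.16) and on FGF1 probe set 3 it was 0.02 ± 0.11 (-0.21 to 0.25). A difference in signal as large as that on FGF2 probe set 2 lay outside all 3 intervals. How far signal on these bovine probes follows the amount of sheep FGF1 RNA was not tested. Over the 12 FGF1 probe sets differences ran from -0.23 to 0.03 and adjusted p-values from 0.365 to 0.997, with 5 means higher and 7 lower in shunt.

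The lowest FGF1 value, on the dim FGF1 probe set 9, leaned on 1 control lamb. Control lambs there ran from 4.93 to 5.89 (median 5.02) and shunt lambs from 4.77 to 5.08 (median 4.93), with control lamb 2 at 5.89 and no other control above 5.20. The difference was -0.23 ± 0.11 (SE, adjusted p = 0.365), and -0.12 without control lamb 2. The next lowest was FGF1 probe set 7, with 5.66 ± 0.06 (SD, n = 8) for control lambs, 5.54 ± 0.12 for shunt lambs and a difference of -0.11 ± 0.05 (adjusted p = 0.366). The remaining 7 FGF1 probe sets lay between -0.09 and 0.03. Among the 66 pairs of FGF1 probe sets the correlation between lambs, group means taken off, ran from -0.46 to 0.73 with a median of 0.03, and 38 of the 66 were above 0.

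FGF10, the mesenchymal ligand of lung branching, differed by less than the spread between lambs on each of its 3 probe sets. On FGF10 probe set 1 control lambs ran from 7.79 to 8.04 (median 7.94) and shunt lambs from 7.81 to 8.17 (median 8.02). The groups overlapped broadly, with a difference of 0.06 ± 0.06 (SE, 95% interval -0.07 to 0.18, adjusted p = 0.685). FGF10 probe set 2, designed on the antisense strand, differed by -0.05 ± 0.09 and FGF10 probe set 3 by 0.01 ± 0.12, and the intervals of the 3 together spanned -0.25 to 0.27.

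FGFR4, a receptor expressed in lung epithelium, had the lowest value of the receptors. On FGFR4 probe set 1 control lambs ran from 8.43 to 9.40 with a median of 8.61, and shunt lambs from 8.00 to 8.65 with a median of 8.38. The 4 control lambs above 8.65 (8.71, 8.83, 9.03 and 9.40) lay clear of every shunt lamb, the other 4 lay among the upper shunt lambs at 8.43 to 8.51, and the shunt lambs at 8.14, 8.12 and 8.00 lay well below all controls. The means were 8.73 ± 0.35 (SD, n = 8) and 8.33 ± 0.22, a difference of -0.40 ± 0.13 (SE, 95% interval -0.67 to -0.12), or 1.32-fold lower. The difference did not pass over all probe sets (limma p = 0.00674, adjusted p = 0.235, exact permutation p = 0.0109), though 8 of 8 shunt lambs lay below the control mean, as in 8.14% of all probe sets. It was -0.44 without control lamb 2, and between -0.44 and -0.30 when each lamb was left out in turn.

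FGFR4 probe set 2 also had all 8 shunt lambs below the control mean, but by less. Control lambs ran from 7.02 to 7.71 (median 7.19) and shunt lambs from 7.04 to 7.16 (median 7.09), a narrow band inside the control range. The difference was -0.15 ± 0.07 (SE, adjusted p = 0.370), with control lamb 2 at 7.71 and every other control at 7.31 or below. It was -0.08 without that lamb. The 2 FGFR4 probe sets did not rank the lambs alike (r = -0.39, rho -0.46, 16 lambs, group means taken off), and the difference between their differences was -0.25 (exact permutation p = 0.205, adjusted p = 0.941).

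FGFR2, whose epithelial form binds FGF10 and FGF7, had a lower mean in shunt lung on its brightest probe set and did not pass the threshold. On FGFR2 probe set 1 control lambs ran from 8.48 to 9.36 (median 8.91) and shunt lambs from 8.09 to 9.08 (median 8.55). The groups overlapped, with shunt lamb 1 at 9.08 among the upper controls and control lambs 2 and 6 at 8.48 and 8.58 among the shunt lambs. The means were 8.94 ± 0.32 (SD, n = 8) and 8.57 ± 0.31, a difference of -0.37 ± 0.14 (SE, 95% interval -0.66 to -0.07), or 1.29-fold lower, and 7 of 8 shunt lambs lay under the mean of the controls. The limma p was 0.0171 (adjusted p = 0.281, exact permutation p = 0.0359). Control lamb 2 was the lowest control here, and the difference was -0.43 without it.

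The other 4 FGFR2 probe sets were dimmer, 3 of them in the dimmest 25% of all probe sets. They differed by -0.10, -0.10, -0.08 and 0.01, with adjusted p-values of 0.449 to 0.978. Control lamb 2 was the highest lamb on FGFR2 probe sets 2 and 4. Without it the 4 differences were -0.05, -0.10, -0.04 and 0.01. Among FGFR2 pairs, probe sets 1 and 5 had the largest difference between their differences, -0.37 (exact permutation p = 0.0471, adjusted p = 0.722). The probe sets are not tied here to the epithelial or the mesenchymal splice form of the receptor, so neither form can be given a value.

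FGFR3 had lower means in shunt on all 5 of its probe sets, by small amounts. On FGFR3 probe set 1 control lambs ran from 6.71 to 7.26 (median 6.84) and shunt lambs from 6.62 to 6.91 (median 6.76), with control lamb 2 at 7.26. The difference was -0.13 ± 0.07 (SE, adjusted p = 0.398), and -0.08 without control lamb 2. On FGFR3 probe set 5, at the 14.4th percentile of all probe sets, it was -0.14 ± 0.06 (limma p = 0.0229, adjusted p = 0.303, exact permutation p = 0.0159), with 8 of 8 shunt lambs under the mean of the controls. Control lamb 2 was the highest lamb there too, and the difference was -0.11 without it. The other 3 differed by -0.13, -0.08 and -0.06, and by -0.10, -0.05 and 0.01 without control lamb 2. From lamb to lamb, group means taken off, the FGFR3 probe sets correlated at r from 0.10 to 0.63 with a median of 0.48 over 10 pairs, beside a median of 0.14 over the 10 pairs of FGFR2 and 0.58 for the 1 pair of FGFR1.

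FGFR1, the receptor most used by FGF2 in mesenchyme and endothelium, differed by -0.05 ± 0.07 (SE) on FGFR1 probe set 1 and by -0.05 ± 0.08 on FGFR1 probe set 2, with adjusted p-values of 0.767 and 0.832. Control lambs ran from 6.68 to 7.21 (median 6.80) on the first and shunt lambs from 6.68 to 6.99 (median 6.78), and again control lamb 2 held the highest value. Without it the 2 differences were 0.00 and 0.01.

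The 13 of 14 receptor probe sets with a lower mean in shunt are set against 55.1% of all probe sets with a lower mean, and 58.3% in the dimmest 25%, where 6 of the 14 lie. They are 4 genes measured in the same 16 lambs, so they are not 14 separate observations. Without control lamb 2 the count was 10 of 14 and the median difference -0.07, with array weights 11 of 14, and over the 16 fits that left out 1 lamb it ran from 10 to 14. With each array centred on its median it was 13 of 14 while 46.2% of all probe sets were lower. The levels of FGFR4 probe set 1 and FGFR2 probe set 1 differed by about as much without control lamb 2 as with it.

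**Figure D3:**
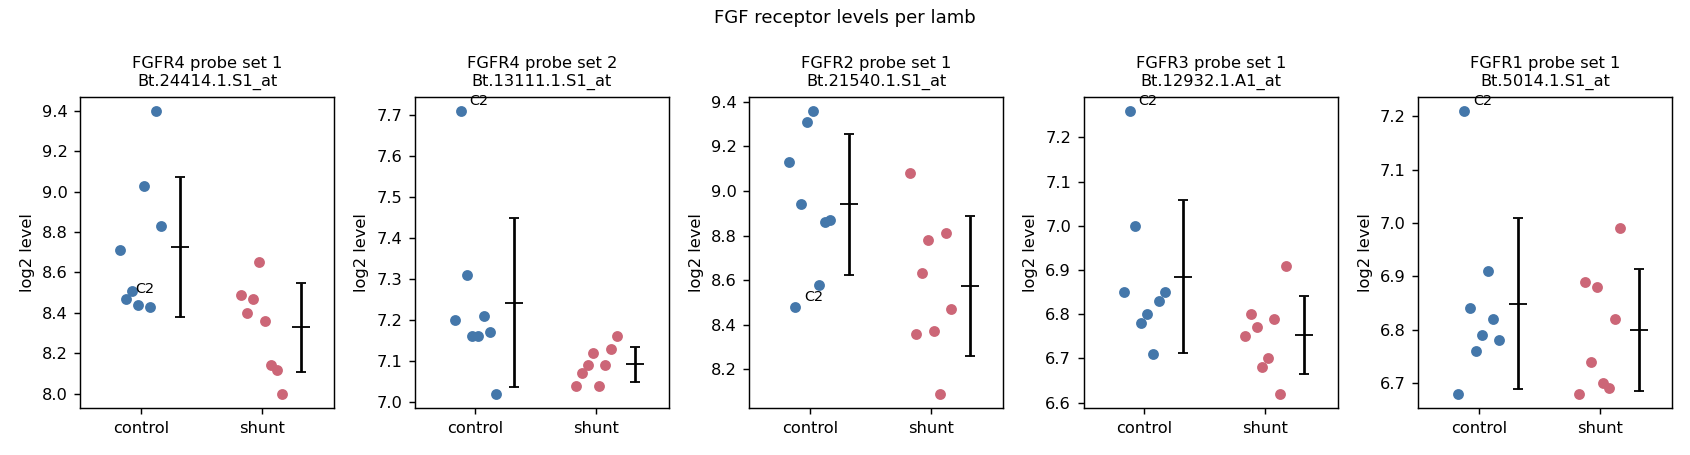
Log2 levels of 5 receptor probe sets, the brightest of each receptor gene and both of FGFR4, 1 point for each lamb with the mean and SD of each group of 8 as bars. C2 marks control lamb 2, which is the highest lamb for FGFR4 probe set 2 (7.71), FGFR3 probe set 1 (7.26) and FGFR1 probe set 1 (7.21), and the lowest control for FGFR2 probe set 1 (8.48).

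FGFR2 and FGFR4 are known in lung epithelium, and marker lists of epithelial cells had lower mean levels in shunt lung beside them. The alveolar type 2 list (8 of 11 genes) had a mean level of 10.36 in control lambs (range 10.22 to 10.50) and 10.21 in shunt lambs (10.04 to 10.45), with a lower mean on 11 of 11 probe sets, 4 of them at an unadjusted p under 0.05 and none past the threshold. Its members of smallest p were the surfactant protein gene SFTPB at -0.23 ± 0.09 (SE, adjusted p = 0.271) on 1 probe set and -0.05 on its other, the phosphate transporter SLC34A2 at -0.34 ± 0.14, and the surfactant protein gene SFTPA1 at -0.22 ± 0.10 on 1 probe set and -0.11 and -0.03 on its other 2. The pan-epithelial list went from 9.34 (9.13 to 9.47) to 9.17 (8.91 to 9.43), with 10 of 10 probe sets lower, and the alveolar type 1 list from 11.20 (10.92 to 11.50) to 11.06 (10.93 to 11.24), with 7 of 8 lower. The airway secretory and basal list went from 7.16 (6.82 to 7.56) to 6.92 (6.71 to 7.26). Of all probe sets 55.1% had a lower mean in shunt, and 7.32% were lower at an unadjusted p under 0.05. Lower means were not confined to epithelial lists, and lists of other cells went in both directions. The neutrophil list went from 6.52 to 6.38, with 9 of 9 probe sets lower, and the mesothelium list from 7.46 to 7.37, with 3 of 3 lower. The fibroblast list went from 10.09 to 10.13, with 11 of 18 higher.

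Within groups, FGFR2 probe set 1 correlated with the type 2 list at r = 0.47 (rho 0.44, 16 lambs), and r was 0.38 without the 2 lambs farthest from the median of the list. Such lambs were picked for each list by its own mean level, group means taken off, and not by the level of the receptor. With the other epithelial lists r was 0.38 for type 1 (0.24 without such lambs), 0.43 for ciliated (0.26), 0.21 for airway secretory and basal (-0.15) and 0.06 for pan-epithelial markers (0.34). With lists of other cells r ran from -0.45 for T and B lymphocytes (-0.63) and -0.43 for fibroblasts (-0.16) up to 0.25 for smooth muscle (0.01). The mesenchymal ligand FGF10, on probe set 1, correlated with the type 2 list at r = 0.54 (rho 0.63, and 0.44 without such lambs). FGFR4 probe set 1 did not follow the type 2 list (r = -0.07, rho 0.09). With the type 1 list r was 0.06 (rho 0.32), and 0.55 without the 2 lambs farthest from the median of that list. For ciliated, airway secretory and basal, and pan-epithelial markers r was -0.23, -0.16 and -0.06 (-0.34, -0.32 and -0.17 without such lambs). The highest correlation of FGFR4 probe set 1 among the 14 marker lists was with smooth muscle (r = 0.71, rho 0.69, and 0.71 without such lambs). FGFR4 probe set 2 ran the other way with the smooth muscle list (r = -0.40, rho -0.41, and -0.42 without such lambs). These correlations describe the same 16 arrays, which share their normalization, and the part of epithelial cells in the receptor differences was not tested further.

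**Figure D4:**
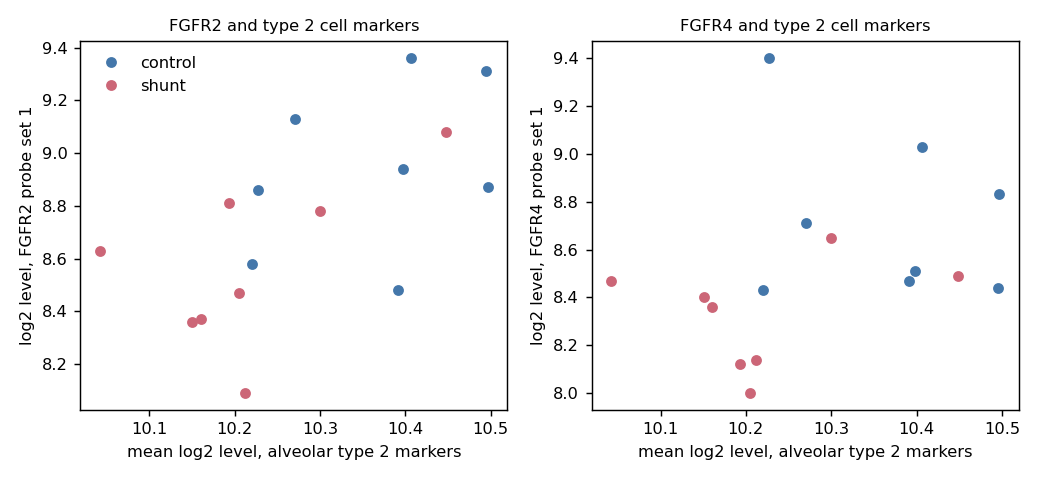
Log2 level of FGFR2 probe set 1 and of FGFR4 probe set 1 against the mean log2 level of the alveolar type 2 markers, 1 point for each of the 16 lambs. Control lambs lie from 10.22 to 10.50 and shunt lambs from 10.04 to 10.45 on the marker axis, and within the groups the correlation is 0.47 for FGFR2 and -0.07 for FGFR4.

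The rest of the pathway was followed through 6 gene lists with 112 genes, of which 52 had a probe set with 1 symbol, 76 probe sets in all. SULF2 was the 1 probe set that passed the threshold, and none passed in the lower direction, while at an unadjusted p under 0.05 there were 6 higher and 8 lower of 76, where 6.42% and 7.32% of all probe sets were. SULF2 is an extracellular sulfatase that removes 6-O-sulfate groups from heparan sulfate, the sugar that FGFs need to bind their receptors. It rose from 6.51 ± 0.12 (SD, n = 8) to 6.88 ± 0.10, by 0.37 ± 0.06 (SE, adjusted p = 0.0195), with 8 of 8 shunt lambs above the control mean, on a probe set designed on the antisense strand. With 1 lamb left out the difference ran from 0.34 to 0.39 and passed in 11 of 16 fits. It missed the threshold without control lamb 5 (adjusted p = 0.0548) and without shunt lambs 2 (0.0582), 3 (0.0552), 5 (0.0502) and 8 (0.0674). None of the other genes of heparan sulfate synthesis and editing passed. HS6ST1, which adds the 6-O-sulfate, differed by -0.11 ± 0.07, and the chain-building enzyme EXT1 by -0.07, 0.04 and -0.05 on its 3 probe sets. The list's median over 7 genes and 10 probe sets was -0.05, and -0.07 to -0.01 with 1 lamb left out.

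Among co-receptors, decoys and carriers (11 of 19 genes, 15 probe sets, median -0.04) none passed. At an unadjusted p under 0.05, 3 were lower, where 7.32% of all probe sets were. FGFRL1, an FGF receptor that lacks a kinase domain, differed by -0.14 ± 0.05 (SE, adjusted p = 0.291), with 0 of 8 shunt lambs above the control mean. The glypicans GPC1 and GPC4, heparan sulfate proteoglycans of the cell surface, differed by -0.13 ± 0.05 and -0.18 ± 0.08. Other members of the FGF family (5 of 18 genes, 7 probe sets) had a median of -0.05 and none passed. Of these 5 genes only FGF8 encodes a secreted ligand, and the proteins of the others stay inside the cell. FGF11 differed by -0.20 ± 0.09 and -0.04 ± 0.05 on its 2 probe sets, FGF13 by -0.08 ± 0.06, and FGF8 by -0.08 ± 0.07 and -0.04 ± 0.06. FGF9 and FGF18, ligands active in lung development, had no probe set with a single symbol and were not analysed here.

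The adaptors and RAS-MAPK relay (15 of 24 genes, 26 probe sets) had a median of 0.01 (-0.01 to 0.03 with 1 lamb left out), and none passed the threshold. At an unadjusted p under 0.05, 4 probe sets were higher and 1 lower, where 6.42% and 7.32% of all probe sets were. The adaptor SHC1 differed by 0.19 ± 0.06 (SE, adjusted p = 0.218) on 1 probe set and by 0.08 and -0.07 on the other 2. The kinase MAP2K1 differed by 0.23 ± 0.08 (adjusted p = 0.271). Its relative MAP2K2 differed by -0.22 ± 0.07 (adjusted p = 0.220) on its dimmest probe set and by -0.12, -0.12 and 0.02 on the others. The adaptor FRS2, which docks at the receptors, was not analysed here for want of a single-symbol probe set.

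Genes that FGF signalling is known to induce or that feed back on it (10 of 21 genes, 12 probe sets) had a median of -0.03 and none passed. The sign of this median was not stable, at 0.12 without control lamb 7, 0.05 without control lamb 8, and 0.08, 0.02 and 0.08 without shunt lambs 1, 3 and 7, and it ran down to -0.10 without control lamb 4. CCND1, the cyclin of G1 phase, went from 7.51 to 7.18, a difference of -0.33 ± 0.11 (SE, adjusted p = 0.239) with 1 of 8 shunt lambs above the control mean. MYC, a growth-promoting transcription factor, went the other way, from 10.95 to 11.41, a difference of 0.46 ± 0.16 (adjusted p = 0.258) with 7 of 8 above. EGR1, an immediate early gene, differed by -0.13 ± 0.06 on 1 probe set and by -0.06 ± 0.40 on the other. SPRY2 and SPRY1, inhibitors of receptor tyrosine kinase signalling, differed by 0.15 ± 0.14 and 0.06 ± 0.10. SPRY4, DUSP6, ETV4 and ETV5, which are read as close markers of FGF signalling, had no single-symbol probe set and were not analysed here.

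The partners of FGF10 in lung growth were few on the array, with 4 of 18 genes and 6 probe sets, and none passed. Their median was -0.15, and -0.06 without the dimmest 25% of probe sets. Of the 6 probe sets 2 were lower at an unadjusted p under 0.05, where 7.32% of all probe sets were. ID2, a transcriptional regulator of the distal tip of the growing epithelium, differed by -0.22 ± 0.09 (SE, adjusted p = 0.309) and -0.18 ± 0.10 on its 2 probe sets. SHH, the epithelial signal that restrains FGF10, differed by -0.27 ± 0.12 on a sense probe set and by 0.06 ± 0.06 on an antisense one. PTCH1, the receptor of SHH, differed by -0.12 ± 0.07, and BMP4, a signal induced at the tips by FGF10, by 0.11 ± 0.09.

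**Figure D5:**
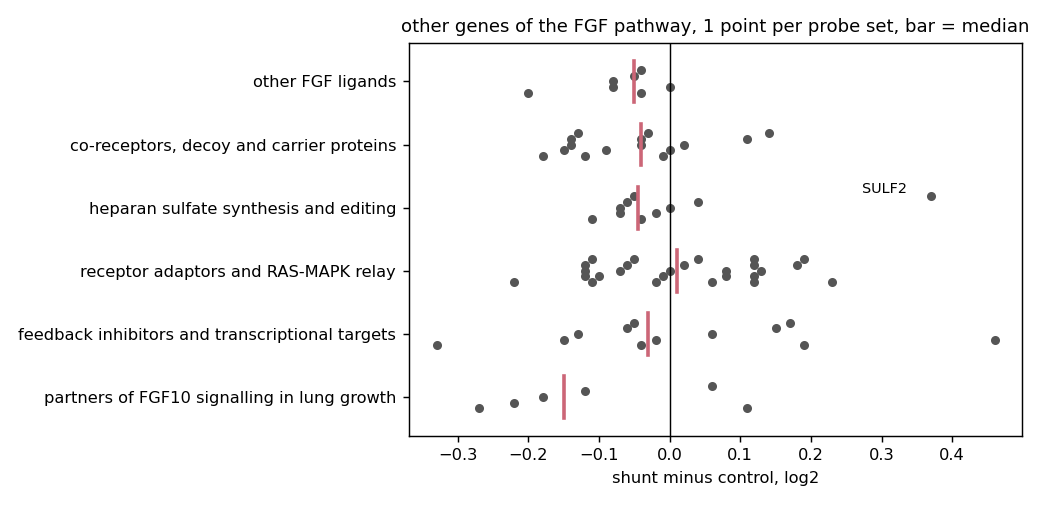
Difference between shunt and control lung (log2, shunt minus control) of each of the 76 probe sets in 6 lists of other FGF pathway genes, 1 point a probe set, with the median of each list as a bar. The list medians lie between -0.15 and 0.01, and SULF2 at 0.37 is the 1 point that passed the threshold.

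The members were also compared with each other across the 16 lambs, on the brightest probe set of each gene and with the group means taken off. FGF1 and FGFR2 correlated at r = 0.54 (rho 0.57), FGFR1 and FGFR3 at r = 0.66 but with a rho of 0.21, and FGFR1 and FGFR2 at r = -0.46 (rho -0.36). FGF10 and its receptor FGFR2 correlated at r = 0.30 (rho 0.30), and FGF2 and FGFR1 at r = 0.03 (rho 0.08). These are descriptions over 21 pairs of genes with no test.

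The genes whose levels ran most like each member were taken from 6444 candidates, over 16 lambs with group means taken off and on the member's brightest probe set. For FGF1 they were ACVRL1, an endothelial receptor for BMP9 (r = 0.89), ZBED5 (0.81) and HSPA12B (0.81). These were at 0.81, 0.65 and 0.65 without the 2 lambs farthest from the median of the member's probe set, group means taken off. FGF2 on probe set 1, which holds the 2 low lambs, was most like MAFF (0.85), the water channel AQP1 (0.80) and ACP1 (0.75), with 0.77, 0.47 and 0.53 without such lambs. On probe set 2 it was most like 3 other genes, GTPBP4 (0.83), MYLIP (0.82) and TMEM167B (0.82), with 0.67, 0.82 and 0.67. FGF10 was most like GGNBP2 (0.79), ZCCHC8 (0.77) and CHMP4B (0.76), with 0.76, 0.76 and 0.85.

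Among the receptors FGFR1 was most like MAVS (r = 0.86), IGF1 (0.85) and GATA4 (0.85), which fell to 0.70, 0.53 and 0.58 without the 2 lambs farthest from the member's median. FGFR2 was most like ATP9B (0.91), HSD17B8 (0.87) and SPAG7 (0.84), with 0.86, 0.80 and 0.77 without such lambs. FGFR3 was most like ATRN (0.89), CNR2 (0.89) and SFRP5 (0.88), which fell to 0.75, 0.60 and 0.60. FGFR4 was most like GLIS2 (0.84), GATM (0.83) and MTIF2 (0.83), with 0.75, 0.90 and 0.72. With that many candidates and 16 lambs the highest correlations are high by selection, and they are given as a description.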

How the data were processed

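The authors deposited log2 expression values for 16 arrays, 1 per probe set and array, and the submitters' processing notes name RMA with no version. Each array received biotinylated cRNA prepared from 1 ug of RNA, per the labels' protocols. The table held 24128 probe sets, of which 112 manufacturer controls were left out. Of the remaining 24016, 13292 had 1 gene symbol in the platform annotation, 86 several and 10638 none. The number of arrays limits the precision.

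The groups were tested in R 4.3.3 with limma 3.58.1 (lmFit and eBayes, two-sided, no covariate), with Benjamini-Hochberg adjustment over all 24016 probe sets and a threshold of 0.05. Single values and pairs of probe sets of one gene were compared with an exact two-sided permutation test over the 12870 divisions of the lambs, whose smallest p is 0.000155, in Python 3.11.15 with scipy 1.17.1. Both were tested on simulated data. Plots were drawn with matplotlib 3.10.9. The sources used here name no batch, so none was tested.

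The member genes, the 6 pathway lists and the 14 lists of cell type markers were chosen with earlier results of these data known. Named genes were all member probe sets, up to 3 genes of smallest p from each pathway list and 12 set genes, the 3 genes most correlated with a member (among probe sets of above-median level), and up to 3 marker genes of smallest p beside a result. RCAN1, VWF, CLDN5, KDR, EGFL7, CNN1, MAFF beside its gap, and the like genes of the second FGF2 probe set fall outside that rule and were chosen after their values were seen. Alternatives were a replicate block, quantile normalization again, removal of the dimmest 25% of probe sets, median centring, cyclic loess, array weights, a trended and robust prior, XIST or the 3' minus 5' level of 6 control genes as a covariate, 1 probe set per gene, a threshold of 0.10 and each array left out. Leaving out shunt lambs 1 and 2 together was chosen after seeing the data.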

Additional observations from a re-analysis of the deposited data

Results flagged for a closer look

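In 8 of 74 sets of 8 values (each member probe set and each pathway list mean in each group) 1 lamb lay far from the others by Dixon's ratio, its gap to the nearest lamb over the whole range, where chance gives about 4. Control lamb 2 was that lamb in 4 of them. It was the highest control on probe set 9 of FGF1, at 5.89 against 5.20 for the next (ratio 0.717), on probe set 1 of FGFR1, at 7.21 against 6.91 (0.565), on probe set 4 of FGFR2, at 5.58 against 5.31 (0.558), and on probe set 2 of FGFR4, at 7.71 against 7.31 (0.585). Shunt lamb 5 was highest on probe set 5 of FGF1, at 7.86 against 7.48 (0.664), and shunt lamb 4 on probe set 10 of FGF1, at 5.20 against 5.05 (0.556). Control lamb 5 had the highest mean of the heparan sulfate list, 7.26 against 7.08 (0.573), and shunt lamb 6 that of the adaptor and RAS-MAPK list, 8.61 against 8.53 (0.578). The low FGF2 values of shunt lambs 1 and 2 on probe set 1 were not picked out in this way, because they lie near each other. What sets these lambs apart was not tested.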

How the results depend on the processing

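Of the 31 probe sets 18 kept the sign of their difference in every alternative and 13 did not, 12 of them FGF1, FGF10 or receptor probe sets with small differences and 1 of them FGF2 probe set 1. That probe set was at 0.4529 without shunt lambs 1 and 2, and at -0.238 to 0.192 with 1 array left out. FGF2 probe set 2 passed with array weights (0.4708) and ran from 0.45 to 0.568 with 1 array left out. The count of member probe sets past the threshold, 0, was 1 with array weights, 1 at an adjusted p of 0.10, and 0 to 1 with 1 array left out. The count over all probe sets, 17, was 10 after quantile normalization again, 26 after median centring (25 higher, 1 lower), 45 with array weights, 28 with the 3' minus 5' covariate, 8 with 1 probe set per gene, 55 at 0.10, and 6 to 75 with 1 array left out, the highest without shunt lamb 1. The median of the FGF10 partner list was -0.0638 without dim probe sets.

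With the replicate block 0 of all probe sets passed (2902 had an unadjusted p under 0.05 in limma). FGF2 probe set 2 then had an adjusted p of 0.0715 and SULF2 one of 0.146. SULF2 also missed the threshold without shunt lambs 1 and 2 (adjusted p = 0.0533). Lambs with the same number correlated at -0.26 to 0.22, 2 of 8 pairs over 0.1, and 0 of 8 pairs best with their own number, so the numbers were taken as names only and no pairing is assumed.

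Differences near 0 that changed sign, in the order quantile, loess and array weights, were -0.0312, -0.0251 and -0.0074 for FGF1 probe set 1 (-0.0307 without shunt lambs 1 and 2), and -0.0101, -0.0062 and -0.0267 for FGF1 probe set 2 (-0.0294). FGF1 probe set 3 was -0.0299 without those lambs. FGF1 probe set 5 was 0.0103 after quantile normalization, 0.0221 after centring, 0.0238 after loess, 0.0376 with weights, 0.0098 with XIST, 0.0128 with the 3' minus 5' level and 0.0054 without those lambs. FGF1 probe set 8 was 0.0064 after quantile normalization, 0.006 after centring and 0.0089 after loess, and FGF1 probe set 12 0.0041 after centring. FGFR1 probe set 1 was 0.0067 and FGFR3 probe set 2 0.009 with weights, and FGFR2 probe set 5 -0.0015 after quantile normalization. With 1 array left out, FGF1 ran from -0.0389 to 0.0344 (probe set 1), -0.0206 to 0.0422 (probe set 2), -0.0294 to 0.0987 (probe set 3), -0.0546 to 0.0411 (probe set 5), -0.0525 to 0.0137 (probe set 8) and -0.104 to 0.0693 (probe set 12). FGF10 ran from -0.0876 to 0.0053 (probe set 2) and -0.0458 to 0.0975 (probe set 3), FGFR1 from -0.0767 to 0.0018 (probe set 1) and -0.0872 to 0.0099 (probe set 2), FGFR2 probe set 5 from -0.035 to 0.0428, and FGFR3 probe set 2 from -0.0908 to 0.0134. The cause was not tested. No detection calls were used here, so signal over background is unknown for the dim probe sets.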
